A study of Mus musculus with 69 samples.

Results

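Wnt ligands are secreted, lipid-modified signalling proteins, and 9 of them are described here in mosaic gastruloids of wild-type and p53KO mES cells: Wnt3, Wnt3a, Wnt4, Wnt5a, Wnt5b, Wnt6, Wnt7b, Wnt8a and Wnt11. They were chosen by symbol, and each has 1 row among the 55367 of a bulk RNA sequencing count table. The table holds 19 Wnt genes. The 10 others had a mean of at most 445 normalized counts in any condition, the highest being that of Wnt8b in WT–emiRFP cells at 96 h. The 69 libraries, 3 replicates of each of 23 conditions, come from E14tg2A mES cells carrying a nuclear reporter. The WT–mCherry clone expresses H2B–mCherry from the EF1α promoter, the WT–emiRFP clone expresses H2B–emiRFP670 from the CAG promoter, and p53KO–emiRFP is a daughter clone of WT–emiRFP with a homozygous frameshift in Trp53. The p53KO genotype is thus 1 clone, and WT is represented by 2. At 0 h the clones were mES cells in serum with LIF. From 48 to 144 h the cells were sorted by FACS from gastruloids, aggregates that elongate and form derivatives of the germ layers in N2B27 medium, which were given the Wnt agonist CHIR99021 (ChIR) from 48 to 72 h. WT + WT gastruloids were started with 150 WT–mCherry and 150 WT–emiRFP cells. WT + p53KO gastruloids were started with 150 WT–mCherry and 25 p53KO–emiRFP cells. The sorted populations were thus WT–mCherry and WT–emiRFP cells of the former and WT–mCherry and p53KO–emiRFP cells of the latter. Cells sorted at 48 h were collected as the pulse began, and those from 72 h on had been through it.

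In the canonical pathway, a Wnt ligand bound to a Frizzled receptor and its Lrp co-receptor halts the β-catenin destruction complex, so that β-catenin accumulates and activates target genes with TCF/LEF factors. ChIR acts on the same complex by inhibiting GSK3, downstream of the ligands. In the gastrulating embryo Wnt3 is needed to form the primitive streak, and Wnt3a and Wnt8a are expressed in the streak and the tail end of the embryo. Wnt5a, Wnt5b and Wnt11 are best known for β-catenin-independent signalling in cell movement and axis extension.

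On GRCm38, Wnt3 lies on the plus strand of chromosome 11 from 103774150 to 103817957 and Wnt3a on the minus strand of the same chromosome from 59248033 to 59290752. Wnt4 lies at 137277489 to 137299726 of chromosome 4 (plus), Wnt5a at 28504750 to 28527448 of chromosome 14 (plus) and Wnt5b at 119432531 to 119544347 of chromosome 6 (minus). Wnt6 lies at 74771892 to 74785322 of chromosome 1 (plus), Wnt7b at 85535437 to 85582473 of chromosome 15 (minus), Wnt11 at 98835112 to 98855195 of chromosome 7 (plus), and Wnt8a on chromosome 18.

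All 9 are protein-coding genes of 4 to 10 merged exons. A gene on the opposite strand overlaps 5 of them, namely Gm2670 at Wnt5a, Fbxl14 at Wnt5b, Gm29539 at Wnt6, AU022754 at Wnt7b and Gm8398 at Wnt11. Whether reads were counted by strand is not given in the sources used here, so reads of such a pair might not be told apart.

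RefSeq promoter windows of 300 bases on GRCm38.p6, from 250 bases before to 50 after a start, were matched for 6 members, 9 windows in all. The core CTTTGA that TCF/LEF factors bind was searched on both strands. A match was present in 1 of 3 windows of Wnt5b and 1 of 2 of Wnt11 and in no window of Wnt3, Wnt3a, Wnt4 or Wnt6, while 16.0% of the 32851 promoters of the same length hold it. The Wnt3a window, of a gene that differed widely between p53KO and WT cells, and the 2 windows with a match are shown 5′ to 3′ on the strand of the gene, with the match in capitals (TCAAAG is the core read from the other strand). They lie at chr11:59290702-59291001, chr6:119449337-119449636 and chr7:98834862-98835161.
Wnt3a: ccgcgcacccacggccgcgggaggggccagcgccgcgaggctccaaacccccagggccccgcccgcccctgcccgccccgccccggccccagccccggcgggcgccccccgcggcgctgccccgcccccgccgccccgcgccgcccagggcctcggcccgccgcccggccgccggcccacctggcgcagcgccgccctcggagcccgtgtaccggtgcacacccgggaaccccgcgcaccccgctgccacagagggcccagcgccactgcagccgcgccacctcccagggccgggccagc
Wnt5b: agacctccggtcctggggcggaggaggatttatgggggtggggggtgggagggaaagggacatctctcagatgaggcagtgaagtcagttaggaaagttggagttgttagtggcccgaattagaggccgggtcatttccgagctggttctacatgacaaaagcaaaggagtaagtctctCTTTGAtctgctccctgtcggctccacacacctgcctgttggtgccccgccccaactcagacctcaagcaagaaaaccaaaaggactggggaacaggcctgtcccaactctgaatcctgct
Wnt11: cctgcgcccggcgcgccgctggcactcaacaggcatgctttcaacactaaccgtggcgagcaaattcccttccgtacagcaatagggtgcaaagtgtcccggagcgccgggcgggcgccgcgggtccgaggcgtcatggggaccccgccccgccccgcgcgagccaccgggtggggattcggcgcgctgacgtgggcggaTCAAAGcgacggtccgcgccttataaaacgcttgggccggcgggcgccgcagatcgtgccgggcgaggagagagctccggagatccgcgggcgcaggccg
The Wnt3a window is 86.3% G and C, the Wnt11 window 71.3% and this Wnt5b window 55.0%, beside a median of 52.7% over all promoters.

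The libraries held 26722541 to 72981570 counts. The shallowest was a WT–mCherry library at 0 h, and all others had at least 44049258. Normalized counts are counts divided by a median-of-ratios size factor, so they compare 1 gene across libraries and not different genes. The disrupted gene, Trp53, had group means of 14610.5 to 25497 normalized counts in WT conditions and 1621 to 2484 in p53KO conditions. The 6 naive pluripotency markers, which define mES cells, were all detected at 0 h, with summed levels of 155030 to 195020. Values below are means ± SD of 3 replicates or the 3 replicates in the order of their numbers. Differences are log2 fold changes ± standard error from edgeR's quasi-likelihood test, with Benjamini-Hochberg adjusted p values (taken over the tested genes) and a threshold of 0.05.

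In WT cells Wnt3, Wnt5a, Wnt5b and Wnt8a rose between 0 and 48 h, before the ChIR pulse, and the other 5 members fell. The changes of Wnt5a (0.35, adjusted p = 0.4) and Wnt4 (−0.19, adjusted p = 0.52) were not called in WT–emiRFP cells alone, and that of Wnt5a was also lost without replicate 1 or without replicate 3 (0.41, adjusted p = 0.22 and 0.37, adjusted p = 0.18). Between 48 and 72 h, 8 of the 9 members rose and none fell, where 32.8% of all tested genes rose and 66.9% changed in either direction. In WT + WT gastruloids Wnt3 and Wnt11 were then at their highest, and in WT cells both fell between 72 and 96 h, while Wnt3a, Wnt5a, Wnt5b and Wnt6 went on to rise. Between 96 and 120 h, 6 members fell (background 28%), and Wnt7b and Wnt4 rose (28.8%). With the replicate number as a block, the rise of Wnt4 (0.34, adjusted p = 0.057) and the fall of Wnt5a (−0.17, adjusted p = 0.06) were not called, and in WT–emiRFP cells alone that of Wnt4 was not either (0.32, adjusted p = 0.15). WT here is the mean of the 3 sorted WT populations, or of both clones at 0 h, so the folds given for WT cells can differ from those between the WT–emiRFP values printed beside them, and consecutive time points were compared in a fit of all 69 libraries. With the block, the changes of Wnt7b from 72 to 96 h (0.26, adjusted p = 0.38) and of Wnt3 (−0.24, adjusted p = 0.1) and Wnt6 (−0.39, adjusted p = 0.16) from 120 to 144 h were not called either. In all, 42 of 45 such changes passed the threshold, 9 from 0 to 48 h (70.3% of all tested genes), 8 in each of the next 3 intervals (66.9%, 58.6% and 56.8%) and 9 from 120 to 144 h (55.4%). As these are bulk samples, fewer cells that make a ligand and less of its RNA in each cell cannot be told apart.

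Of the streak ligands, Wnt3 stood at 181, 162 and 199 normalized counts in WT–emiRFP cells at 48 h and at 2501, 2479.5 and 2053 at 72 h. By 120 h it was back to 114, 161 and 132. In WT cells it rose 12.8-fold from 48 to 72 h and fell 4.84-fold from 72 to 96 h. Wnt3a was nearly absent at 48 h, with 4.71, 1.10 and 4.62, and reached 849.8, 465 and 821 at 72 h and 5616, 6876 and 6494 at 96 h. Its peak was short, since it stood at 349, 319.8 and 385 at 120 h, a change of the WT–emiRFP mean from 6328 to 351, and over the WT populations it fell 11.6-fold. In WT cells Wnt8a rose 25.2-fold between 48 and 72 h, and stood at 12110.4, 10260.4 and 11627 in WT–emiRFP cells. It held 9128, 11259.6 and 7631 at 96 h, a change from 72 h in WT cells that did not pass the threshold (0.12 ± 0.093, adjusted p = 0.29). By 120 h it had fallen 7.20-fold in WT cells.

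The ligands of β-catenin-independent signalling followed different courses. Wnt5a rose 15.6-fold in WT cells between 72 and 96 h, stood at 4779.9, 5063 and 5909 in WT–emiRFP cells and was at 3258, 2434 and 3462 at 120 h. After 120 h it fell steeply, to 328, 211 and 249.5 at 144 h, a change of the WT–emiRFP mean from 3051 to 263, and 6.10-fold over the WT populations. Wnt5b rose 9.53-fold in WT cells between 48 and 72 h, peaked at 4515, 5241 and 5478 at 96 h in WT–emiRFP cells and had fallen 4.90-fold in WT cells by 120 h. Wnt11 had a single sharp maximum in WT–emiRFP cells, 326, 314 and 191 at 72 h, with group means of 14.9 to 91.6 at every other time.

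Wnt4 and Wnt7b, which act in epithelial organs such as kidney and lung, were the late ligands. Wnt7b was high in mES cells (572, 326 and 405 in WT–emiRFP), stood at group means of 42.8 to 60.2 from 48 to 96 h and was then at 655, 862 and 906 at 120 h and 1354, 1487 and 1408 at 144 h. In WT cells it rose 9.79-fold between 96 and 120 h. Wnt4 climbed from 38.8 ± 8.98 at 48 h to 300.4 ± 43.3 at 144 h. Wnt6, a ligand of surface ectoderm and of primitive endoderm derivatives, stood at 458, 816 and 621 at 96 h and had fallen 12.6-fold in WT cells by 120 h.

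**Figure D1:**
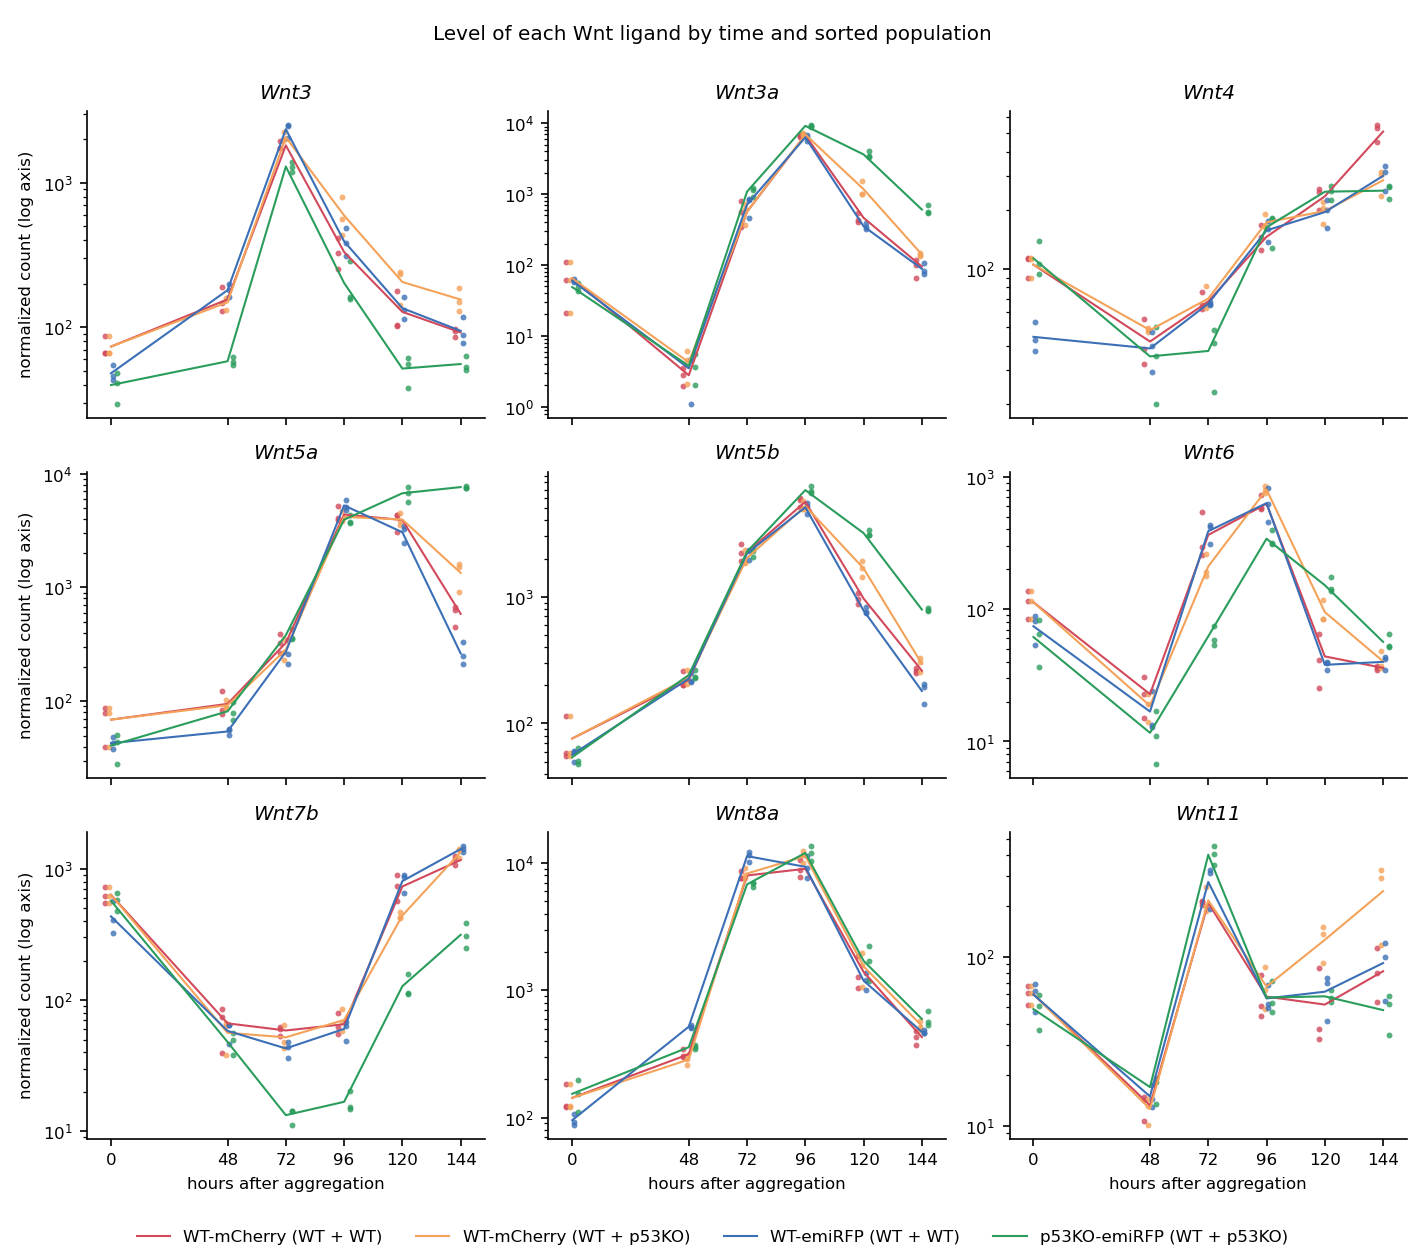
Normalized counts (log axis) of the 9 Wnt ligands against time in hours, 1 panel per gene, with a point for each replicate and a line through the mean of each population; both WT–mCherry lines start from the same mES cell libraries. Wnt3, Wnt3a, Wnt5b, Wnt6 and Wnt8a peak at 72 or 96 h in every population, and at 144 h Wnt5a stays at 7476 to 7821 in p53KO–emiRFP cells beside 211 to 328 in WT–emiRFP cells.

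Neighbouring time points in the order of a gene's levels often overlapped. In WT–emiRFP cells Wnt8a overlapped between 72 and 96 h, Wnt3 between 120 and 144 h, Wnt6 between 144 and 120 h, and Wnt5a between 72 and 144 h. Wnt3a and Wnt5b had no overlapping neighbours there, nor in p53KO–emiRFP cells, where each took 6 separate levels. In p53KO–emiRFP cells the order of Wnt5a was 144, 120, 96, 72, 48 and 0 h from the highest, with 144 and 120 h overlapping, whereas WT–emiRFP cells had their highest level at 96 h.

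Levels of different ligands were compared per kilobase of merged exons. In WT–emiRFP cells the 9 members summed to 266 normalized counts per kb at 0 h and 481 at 48 h, and then to 8643 at 72 h and 10700.0 at 96 h, before they dropped to 1780.0 at 120 h and 835 at the last time point. Wnt8a made up the largest part from 48 to 120 h, with 61.6%, 75.1%, 50.0% and 38.3% of the sum. Wnt7b led at 0 h (33.3%) and at 144 h (34.6%). The sums in p53KO–emiRFP cells were 328, 354, 5748, 13610.0, 4532 and 2011 per kb. There Wnt3a led at 120 h with 29.0%, ahead of Wnt5b with 26.4%, and Wnt5a led at 144 h with 48.4%.

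**Figure D2:**
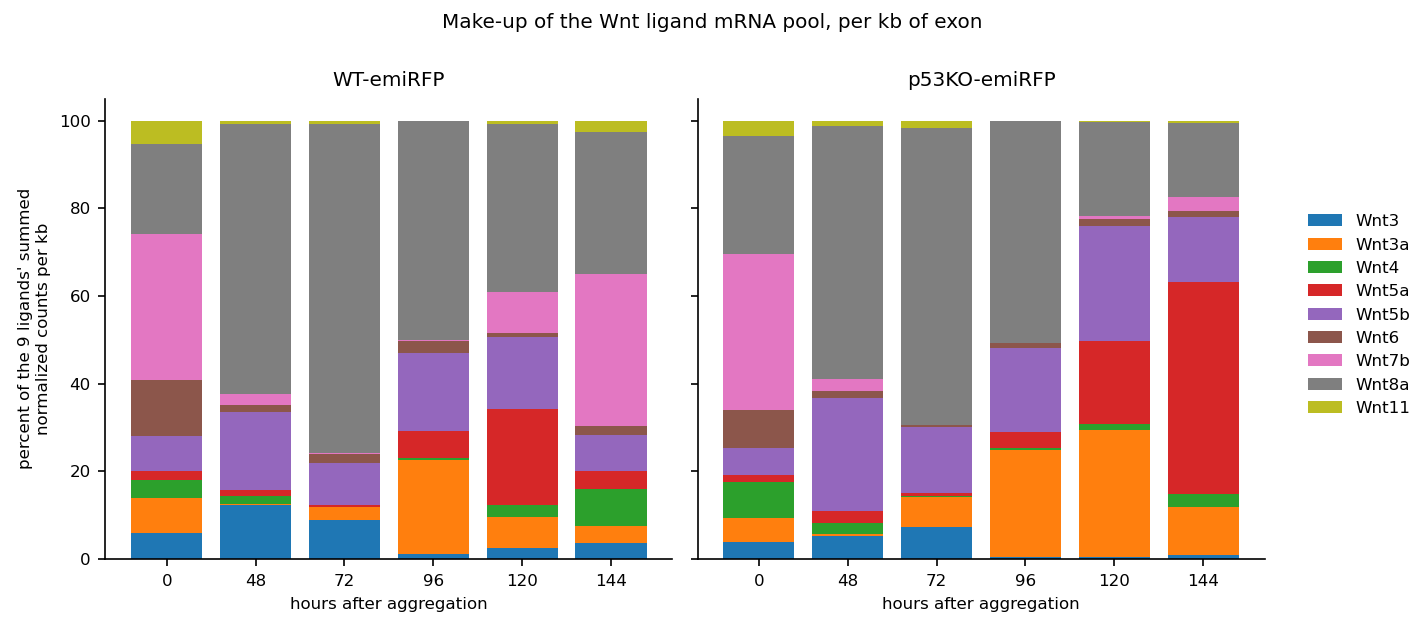
Share in percent of each Wnt ligand in the summed normalized counts per kilobase of the 9 members, by time in hours, for WT–emiRFP (left) and p53KO–emiRFP cells (right), from group means. Wnt8a fills 75.1% at 72 h in WT–emiRFP cells, and at 144 h Wnt7b leads there with 34.6% while Wnt5a takes 48.4% in p53KO–emiRFP cells.

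Loss of p53 was examined by comparing p53KO–emiRFP with WT–emiRFP cells at each time point. In mES cells 1 of the 9 members was higher and none was lower, where 1.98% of all tested genes were higher and 4.15% lower (6.13% in all). At 48 h, 1 was higher (10.3%) and 2 were lower (11.7%) among the 8 that could be tested, since Wnt3a fell under the filter on low counts, with 22% of all tested genes called. At 72 h, 1 was higher (13.4%) and 5 were lower (15.7%), a total of 6 of 9 beside 29.1%. At 96 h, 2 were higher (9.45%) and 4 lower (13.8%), beside 23.3%. At 120 h the balance had turned, with 4 higher (27.3%) and 2 lower (23.7%), beside 51%. At 144 h, 5 were higher (33.1%) and 2 lower (32.1%), beside 65.3%. The counts of 6 of 9 at 120 h and 7 of 9 at 144 h are thus not far above the share of all tested genes. The median log2 fold change of the members was −0.74 at 72 h, 0.52 at 120 h and 0.34 at 144 h, where that of all tested genes was 0.01, 0.05 and 0.01. Whether a difference changed from 1 time point to the next was tested too. It did so for 3 members between 0 and 48 h (background 5.98%), 1 between 48 and 72 h (1.76%), 4 between 72 and 96 h (11%), 4 between 96 and 120 h (30.8%) and 2 between 120 and 144 h (16.9%). With the replicate number as a block, it also did so for Wnt3 between 48 and 72 h (0.78, adjusted p = 0.0035, 2 members beside 5.59%), for Wnt5b between 72 and 96 h (0.41, adjusted p = 0.0038, 5 members beside 21.6%), and between 120 and 144 h for Wnt3 (0.65, adjusted p = 0.029) and Wnt4 (−0.59, adjusted p = 0.031), 4 members beside 27%.

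**Figure D3:**
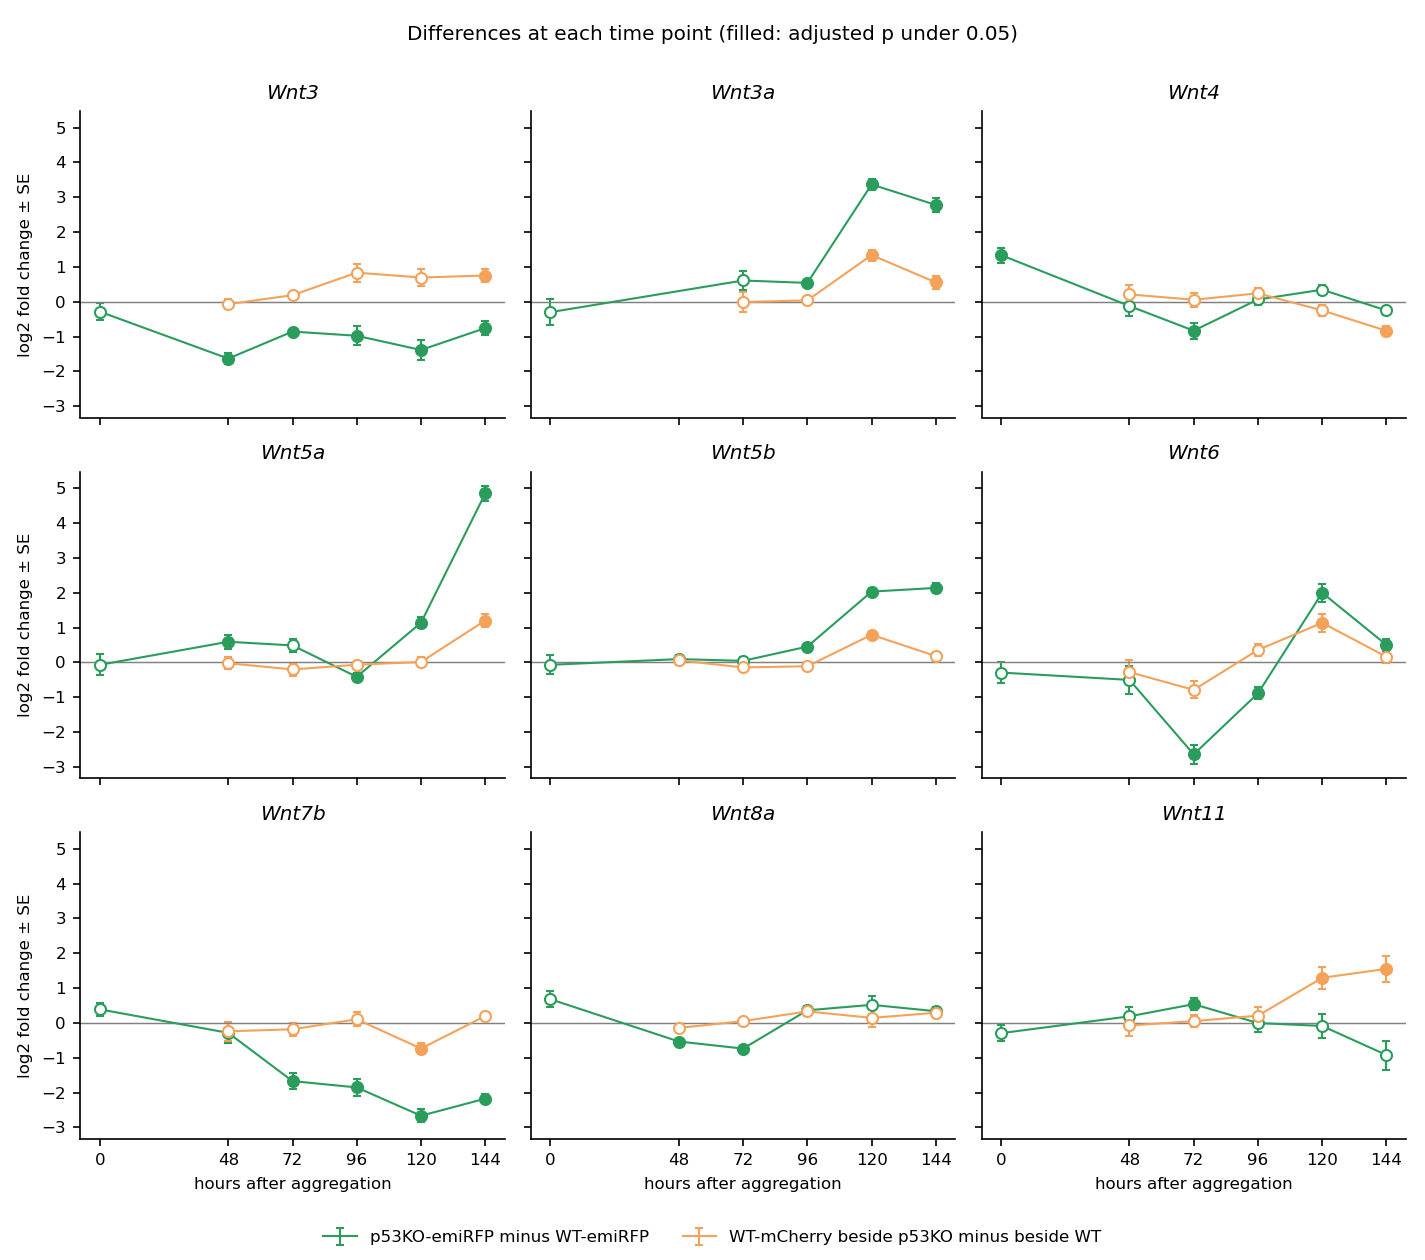
Log2 fold changes ± standard error of the 9 Wnt ligands by time in hours, for p53KO–emiRFP against WT–emiRFP cells and for WT–mCherry cells with p53KO against those with WT neighbours; filled points have an adjusted p under 0.05. Wnt3 and Wnt7b lie below 0 in p53KO–emiRFP cells at 72 h and later, Wnt3a, Wnt5a and Wnt5b lie far above it at 120 and 144 h, and the differences by neighbour are filled only at these last 2 time points.

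Wnt3, the ligand that starts the streak, was lower in p53KO–emiRFP cells at each of the 5 gastruloid time points. At 48 h the replicates were 55.0, 62.4 and 57.4 in p53KO–emiRFP cells and 181, 162 and 199 in WT–emiRFP cells, 3.10-fold lower (−1.63 ± 0.16, adjusted p = 1.8e-06). At its peak at 72 h it was 1290.0, 1401 and 1189 beside 2501, 2479.5 and 2053. The groups did not overlap at either time, and the p53KO cells still rose 22.2-fold between them. The log2 fold change was −0.86 ± 0.088 at 72 h. Later it was −0.98 ± 0.27 at 96 h, −1.39 ± 0.28 at 120 h, and −0.76 ± 0.19 at the last time point. The 96 h difference was no longer called when replicate 1 was left out (−0.83, adjusted p = 0.25), and at that time WT–mCherry cells beside WT cells, at 327, 416 and 252, overlapped with p53KO–emiRFP cells, at 158, 287 and 163. In mES cells the difference in Wnt3 was −0.28 ± 0.24, adjusted p = 0.61.

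Wnt3a, which keeps the tail bud and its mesoderm progenitors going, moved the other way. At 96 h it was already higher, with 8998, 9199.7 and 9420.1 in p53KO–emiRFP cells and 5616, 6876 and 6494 in WT–emiRFP cells (0.54 ± 0.065, adjusted p = 3.2e-05). At 120 h the replicates were 3347, 4087 and 3458 in p53KO–emiRFP cells and 349, 319.8 and 385 in WT–emiRFP cells. The lowest p53KO replicate stood far above the highest WT replicate, a 10.3-fold difference (3.37 ± 0.17, adjusted p = 1.7e-09). From 96 to 120 h, Wnt3a thus fell 2.54-fold in p53KO–emiRFP cells and 11.6-fold over the 3 WT populations. At 144 h it was 568, 541 and 709 beside 106, 82.6 and 75.6 (2.78 ± 0.19, adjusted p = 2.2e-08). At 72 h the difference was 0.61 ± 0.28, adjusted p = 0.12, and with the replicate number as a block it was called (0.65, adjusted p = 0.00053).

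Wnt8a crossed over. It was lower in p53KO–emiRFP cells at 48 h, with 358, 345 and 369 beside 511, 534 and 508 (−0.53 ± 0.086, adjusted p = 0.00035), and at 72 h, with 6922, 6462 and 7015 beside 12110.4, 10260.4 and 11627 (−0.74 ± 0.077, adjusted p = 4.6e-06). In a fit of all 69 libraries the 48 h difference was not called (−0.53, adjusted p = 0.059). WT–mCherry cells beside WT cells stood below the p53KO–emiRFP cells at 48 h, at 298, 303 and 344, and between both groups at 72 h, at 7682, 7597 and 8675. At 144 h Wnt8a was higher in p53KO–emiRFP cells, with 559.8, 689 and 536 beside 485, 463 and 465 (0.34 ± 0.12, adjusted p = 0.019), and this call was lost without replicate 1 or without replicate 2 (0.40, adjusted p = 0.06 and 0.21, adjusted p = 0.16). At 96 and 120 h the replicates overlapped and the differences were 0.36 ± 0.14, adjusted p = 0.074 and 0.52 ± 0.25, adjusted p = 0.11. Both were called with the replicate block (0.37, adjusted p = 6.8e-08 and 0.49, adjusted p = 3.7e-05).

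Wnt5a, which drives outgrowth of the body axis and limbs through Ror receptors, gave the widest difference of any member. At 120 h it stood at 6809.7, 5652 and 7686 in p53KO–emiRFP cells and 3258, 2434 and 3462 in WT–emiRFP cells (1.14 ± 0.15, adjusted p = 3.1e-05). At 144 h the replicates were 7524, 7476 and 7821 in p53KO–emiRFP cells and 328, 211 and 249.5 in WT–emiRFP cells. From 120 to 144 h the change in p53KO–emiRFP cells was 0.18 ± 0.16, adjusted p = 0.49 (with the replicate block 0.32, adjusted p = 0.015), while the WT–emiRFP mean went from 3051 to 263, and the difference at 144 h was 28.8-fold (4.85 ± 0.22, adjusted p = 6.6e-10). Earlier differences were small, 0.59 ± 0.20 at 48 h and −0.42 ± 0.11 at 96 h, both past the threshold, and 0.49 ± 0.19 at 72 h, which passed with the replicate block (0.50, adjusted p = 0.00039). The 48 h call was lost on leaving out any replicate (0.46, adjusted p = 0.14 without replicate 1, the smallest of the 3 changes), and the 96 h call without replicate 1 or replicate 2 (−0.44, adjusted p = 0.1 and −0.41, adjusted p = 0.09). At both times p53KO–emiRFP cells, at 97.7, 68.6 and 78.5 and at 3699, 3748 and 4353, overlapped with WT–mCherry cells beside WT cells, at 123, 77.5 and 83.7 and at 3906, 4062 and 5138, and at 48 h the p53KO–emiRFP mean was the lower of these.

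Wnt5b, a close relative of Wnt5a, had differences that did not pass the threshold at 48 and 72 h (0.09 ± 0.13, adjusted p = 0.65 and 0.04 ± 0.11, adjusted p = 0.82). It was higher at 96 h, with 6531, 6776 and 7518 in p53KO–emiRFP cells and 4515, 5241 and 5478 in WT–emiRFP cells (0.45 ± 0.084, adjusted p = 0.0013). At 120 h the values were 3088, 3391 and 3054 beside 828, 746 and 758, and at 144 h 817, 779 and 782 beside 205, 193 and 143. These are differences of 4.09-fold and 4.40-fold, with no overlap (2.03 ± 0.10, adjusted p = 1.7e-09 and 2.14 ± 0.13, adjusted p = 9.4e-09).

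Wnt11, a ligand of convergent extension movements, passed the threshold only at its 72 h peak, with 403, 450.0 and 351 beside 326, 314 and 191 (0.54 ± 0.17, adjusted p = 0.029). That call was lost without replicate 1 or without replicate 2 (0.67, adjusted p = 0.09 and 0.55, adjusted p = 0.11). At 144 h it was 34.5, 52.1 and 58.2 beside 99.8, 120.3 and 54.8, which overlapped, a difference of −0.92 ± 0.42, adjusted p = 0.066, which passed with the replicate block (−0.87, adjusted p = 0.012).

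Wnt7b was lower in p53KO–emiRFP cells from 72 h on. At 72 h it was 14.3, 14.2 and 11.2 beside 43.9, 36.5 and 48.0 (−1.67 ± 0.24, adjusted p = 0.00011), and at 96 h the log2 fold change was −1.85 ± 0.24. At 120 h, when it rose in WT cells, it was 113, 111 and 159 beside 655, 862 and 906, 6.34-fold lower (−2.67 ± 0.19, adjusted p = 5.3e-08). At 144 h it was 249, 306 and 389 beside 1354, 1487 and 1408 (−2.17 ± 0.13, adjusted p = 6.4e-09). The rise between 96 and 120 h was nevertheless present in p53KO–emiRFP cells, 7.66-fold, from a lower base.

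Wnt6 changed sides. At 72 h it was 58.5, 53.4 and 75.0 in p53KO–emiRFP cells and 419, 311 and 433 in WT–emiRFP cells, 6.25-fold lower (−2.64 ± 0.28, adjusted p = 5.5e-06), and at 96 h it was again lower, by a smaller amount (−0.89 ± 0.17). At 120 h it was higher, with 138, 175 and 141 beside 40.0, 34.9 and 38.8 (2.00 ± 0.26, adjusted p = 2.1e-05). At 144 h the levels were low in both, 52.5, 52.1 and 65.0 beside 34.5, 41.8 and 43.5 (0.50 ± 0.18, adjusted p = 0.027). This last call was lost on leaving out any replicate (adjusted p = 0.13 without replicate 3, the highest) and with DESeq2 (0.50, adjusted p = 0.076). With edgeR, Wnt4 was the one member called in mES cells, with 93.4, 106 and 139.5 in p53KO–emiRFP and 42.7, 53.3 and 37.7 in WT–emiRFP cells (1.34 ± 0.22, adjusted p = 0.0021). WT–mCherry mES cells, at 114, 89.1 and 112, overlapped with the p53KO clone. The call was lost without replicate 3 (1.06, adjusted p = 0.062). Wnt8a in mES cells was at 111, 154 and 197 in p53KO–emiRFP and 92.5, 87.8 and 106 in WT–emiRFP cells (0.68 ± 0.23, adjusted p = 0.1), which was called by DESeq2 (0.68, adjusted p = 0.049), with no filter on low counts (0.68, adjusted p = 0.021) and without replicate 1 (0.84, adjusted p = 0.02). At 72 h Wnt4 was lower (−0.83 ± 0.22, adjusted p = 0.012), a call lost without replicate 2 (−0.57, adjusted p = 0.082), and at 120 h it was 0.35 ± 0.15, adjusted p = 0.067, which passed with the replicate block (0.35, adjusted p = 0.033).

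Markers of posterior cells moved with these differences. The 8 genes of primitive streak and caudal epiblast, such as T, Cdx2 and Fgf8, were all higher in p53KO–emiRFP cells at 120 and at 144 h. Their summed normalized counts were 43737 to 50464 in p53KO–emiRFP and 14081 to 15758 in WT–emiRFP cells at 120 h, and 14953 to 15772 and 1384 to 1686 at 144 h. Of 7 paraxial mesoderm genes, 5 were higher at 120 h and all 7 at 144 h, with sums of 52286 to 65128 beside 14193 to 18937 and of 26415 to 33431 beside 4453 to 5914. In contrast, 4 of 5 haematoendothelial genes were lower at 120 h, with sums of 812 to 1132 beside 5315 to 5480. The 6 naive pluripotency genes were lower at 120 and 144 h, with sums of 9823 to 10560.0 beside 55910.0 to 64583 and of 11982 to 18140.0 beside 72442 to 85515. Of all tested genes 27.3% were higher and 23.7% lower at 120 h, and 33.1% and 32.1% at 144 h. No gene of these lists was at 0 in these libraries. Their part in the differences of the ligands was not tested.

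The question of whether p53KO neighbours change the ligands of WT cells was addressed in the WT–mCherry cells, which have the same genotype in both kinds of gastruloid. At 48, 72 and 96 h, 0 of the members passed edgeR's threshold, where 0.0735%, 0.559% and 3.93% of all tested genes did. Of all tested genes, 1068, 1744 and 3637 had an unadjusted p under 0.05, and DESeq2 also called 0 members. At 120 h, 4 members were higher (background 3.43%) and 1 was lower (2.53%) beside p53KO cells, together 5 of 9 beside 5.95%. At 144 h, 4 were higher (10.1%) and 1 was lower (15.4%), beside 25.5%. The difference between neighbours changed past edgeR's threshold in 2 members between 96 and 120 h (1.15%) and in 3 between 120 and 144 h (7.62%). It did so in 0 between 48 and 72 h (0%) and in 0 between 72 and 96 h (0.0237%), where 845 and 1102 of all tested genes had an unadjusted p under 0.05 and DESeq2 called 0 members. With the replicate block, 2 members passed between 72 and 96 h (1.14%), Wnt3 (0.64, adjusted p = 0.004) and Wnt6 (1.12, adjusted p = 0.00076). Between 96 and 120 h, 4 did (4.5%), with Wnt11 (1.09, adjusted p = 0.041) and Wnt7b (−0.83, adjusted p = 0.045) added, and between 120 and 144 h, 6 did (18.4%), with Wnt3a (−0.78, adjusted p = 0.026), Wnt4 (−0.60, adjusted p = 0.034) and Wnt6 (−0.99, adjusted p = 0.045) added. Both steps include 120 h, where replicate 1 of the WT–mCherry groups correlated at 0.0717. The replicate numbers were thus not shown to pair there, which limits these added calls. The median log2 fold change of the members was 0.70 at 120 h and 0.29 at 144 h, and that of all tested genes −0.01 and −0.03.

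The same-numbered replicates paired at 48, 72, 96 and 144 h, and there the replicate block added calls. It called 0 members at 48 h, where 4.91% of all tested genes were called. At 72 h it called Wnt6 (−0.75, adjusted p = 0.011, background 2.27%). At 96 h it called 4 members (background 20.9%), of which Wnt3 (0.83, adjusted p = 8.2e-07), Wnt8a (0.34, adjusted p = 2.8e-06) and Wnt6 (0.37, adjusted p = 0.017) were higher and Wnt5b (−0.11, adjusted p = 0.043) was lower. Wnt3 at 96 h was 559, 790.3 and 432 beside p53KO cells and 327, 416 and 252 beside WT cells, so that the lowest of the former lay above the highest of the latter (0.84 ± 0.26, adjusted p = 0.085 without the block). At 144 h the block added Wnt8a (0.30, adjusted p = 0.016, background 37.2%).

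At 120 h Wnt3a was 1012, 1510.2 and 994 in cells beside p53KO cells and 546, 407 and 435 beside WT cells, 2.53-fold higher (1.34 ± 0.16, adjusted p = 0.00048). Wnt5b was 1677, 1898 and 1442 beside p53KO and 1063, 958 and 879.9 beside WT cells (0.79 ± 0.10, adjusted p = 0.00058). Neither gene overlapped between the groups, and both calls held without any single replicate. Wnt11 was 137, 149.8 and 91.1 beside p53KO and 37.4, 86.0 and 32.6 beside WT cells (1.29 ± 0.31, adjusted p = 0.027). The groups of Wnt11 were separated by a narrow gap. Wnt6 was 83.7, 117 and 83.9 beside p53KO and 41.2, 65.2 and 25.3 beside WT cells (1.13 ± 0.26, adjusted p = 0.02). Wnt7b was lower, with 426, 424 and 473 beside p53KO cells and 568, 899 and 736 beside WT cells (−0.73 ± 0.17, adjusted p = 0.02). Wnt11 and Wnt6 were not called without replicate 1 (1.05, adjusted p = 0.4 and 1.18, adjusted p = 0.25) or without replicate 3 (1.22, adjusted p = 0.076 and 0.92, adjusted p = 0.12). Wnt7b was lost on leaving out any replicate, with the smallest change without replicate 2 (−0.54, adjusted p = 0.14). Wnt5a was 3806, 3548 and 4479 beside p53KO and 4321, 3095 and 4318 beside WT cells, which overlapped (0.01 ± 0.15, adjusted p = 0.98).

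At 144 h Wnt5a was 1612, 909.9 and 1504 in cells beside p53KO cells and 674, 453 and 632 beside WT cells, 2.30-fold higher (1.20 ± 0.20, adjusted p = 0.00092). Wnt11 was 292, 324 and 116 beside p53KO and 79.6, 113 and 53.6 beside WT cells (1.55 ± 0.37, adjusted p = 0.0088). Wnt3 was 187, 149 and 131 beside p53KO and 93.8, 86.2 and 96.9 beside WT cells (0.75 ± 0.18, adjusted p = 0.0081). The groups of these 3 genes did not overlap, with replicate 3 of Wnt11 beside p53KO cells closest to the WT side. Wnt4 was lower, with 316, 304 and 235 beside p53KO and 449, 527 and 548 beside WT cells (−0.83 ± 0.14, adjusted p = 0.001). Wnt3a was 147, 139.7 and 134 beside p53KO and 118, 101 and 65.9 beside WT cells, just past the threshold (0.55 ± 0.19, adjusted p = 0.049). Without replicate 1, Wnt11 (1.38, adjusted p = 0.12), Wnt3 (0.61, adjusted p = 0.057) and Wnt3a (0.70, adjusted p = 0.077) were not called. Wnt3 was not called without replicate 2 either (0.73, adjusted p = 0.084), and Wnt3a was lost on leaving out any replicate.

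RNA that marks the emiRFP clones was measurable in the sorted WT–mCherry libraries and is called emiRFP cell RNA here. Whether all of it came from emiRFP cells was not tested. The histone genes H2bc14 and H2bc7 mark the emiRFP clones, with 7.24 ± 1.01 normalized counts of H2bc14 in WT–mCherry and 9940.5 ± 582 in WT–emiRFP mES cells. As a percentage of the level in the emiRFP cells of the same gastruloids and replicate number, H2bc14 in WT–mCherry cells beside p53KO cells reached 7.46%, 3.01% and 6.66% at 120 h and 16.9%, 2.39% and 9.23% at 144 h. Beside WT cells it was 1.16% to 2.11% and 0.191% to 2.12%. H2bc7 gave 2.09% to 11.9% beside p53KO cells at 144 h. Wnt5a and Wnt3a are genes whose p53KO–emiRFP levels at 144 h far exceeded those of WT–mCherry cells beside WT cells.

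When the emiRFP profile was subtracted in proportion to H2bc14, the 144 h differences of Wnt5a and Wnt3a were no longer called (0.20, adjusted p = 0.53 and −0.11, adjusted p = 0.8). Subtraction by H2bc7 left Wnt5a called but smaller (0.50, adjusted p = 0.017) and Wnt3a not called (0.07, adjusted p = 0.86). The other 8 calls at 120 and 144 h remained called under both subtractions, among them Wnt3a at 120 h (1.14 and 1.14). Without WT–mCherry beside p53KO replicate 1, the library with the highest share, Wnt11 (1.23, adjusted p = 0.092) and Wnt7b (−0.71, adjusted p = 0.08) were not called at 120 h, nor Wnt3a at 144 h (0.52, adjusted p = 0.11).

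**Figure D4:**
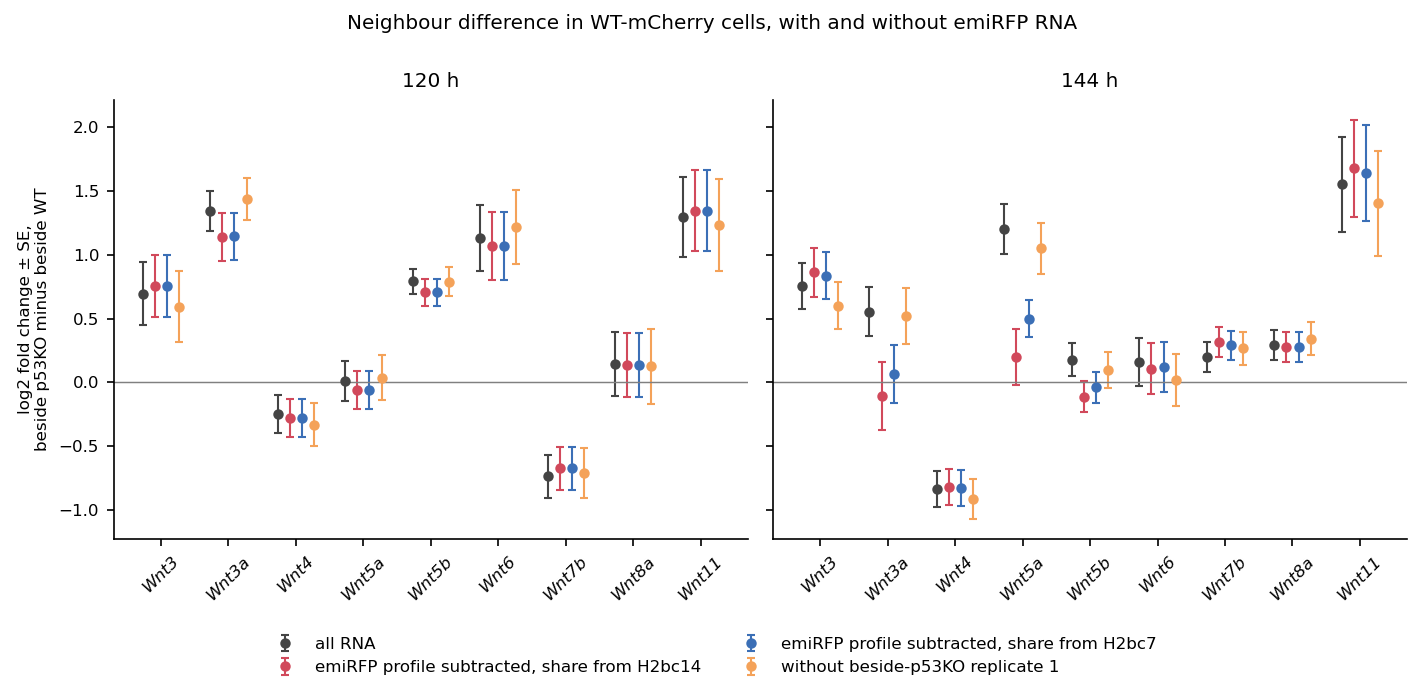
Log2 fold changes ± standard error of the 9 Wnt ligands in WT–mCherry cells with p53KO against those with WT neighbours at 120 and 144 h, with all RNA, after subtraction of the emiRFP profile by H2bc14 or by H2bc7, and without replicate 1 beside p53KO cells. At 144 h Wnt5a drops from 1.20 to 0.20 with the H2bc14 subtraction and Wnt3a from 0.55 to −0.11, while the values at 120 h move little.

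In the same WT–mCherry cells, posterior markers also differed by neighbour. Of the 8 genes of primitive streak and caudal epiblast, 6 were higher beside p53KO cells at 120 h and 6 at 144 h, with sums of 24365 to 31377 beside 17679 to 19529 and of 3553 to 4255 beside 1344 to 1546. Of 7 paraxial mesoderm genes, 5 were higher at 120 h (31025 to 37617 beside 18600 to 24677), and at 144 h 4 were higher and 1 lower (5874 to 10430.0 beside 8133 to 10553). Of all tested genes 3.43% were higher and 2.53% lower at 120 h, and 10.1% and 15.4% at 144 h. The emiRFP cell RNA was not subtracted from these sums. The part of the markers in the differences of the ligands was not tested.

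The WT clones, which differ in their reporter and not in Trp53, were compared as mES cell cultures at 0 h and within the same gastruloids from 48 h on. WT–emiRFP against WT–mCherry cells gave 1 called member in mES cells (background 11.1%), 2 at 48 h (8.89%) and 2 at 72 h (7.64%). In mES cells DESeq2 called 2 members. At 96 h it gave 0 (2.15%), at 120 h 0 (1.24%) and at 144 h 3 (23.8%). At 96 and 120 h, 2969 and 2661 of all tested genes had an unadjusted p under 0.05, and DESeq2 also called 0 members. Wnt8a was higher in WT–emiRFP cells at 48 h (511, 534 and 508 beside 298, 303 and 344, 0.72 ± 0.086, adjusted p = 9.1e-05) and at 72 h (0.51 ± 0.077, adjusted p = 0.0011). Wnt3 was higher at 72 h (0.37 ± 0.086, adjusted p = 0.017). At 144 h Wnt5a was 328, 211 and 249.5 in WT–emiRFP and 674, 453 and 632 in WT–mCherry cells (−1.15 ± 0.21, adjusted p = 0.0019). Wnt4 (−0.76 ± 0.14, adjusted p = 0.0016) and Wnt5b (−0.54 ± 0.14, adjusted p = 0.011) were lower as well. At 0 h Wnt4 was lower (−1.24 ± 0.22, adjusted p = 0.0044), and at 48 h Wnt5a was (−0.79 ± 0.19, adjusted p = 0.017).

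Of the 8 clone differences, 6 lost their call when a replicate was left out. Leaving out replicate 1 removed the calls of Wnt3 and Wnt8a at 72 h (0.30, adjusted p = 0.32 and 0.43, adjusted p = 0.11). Leaving out replicate 2 removed those of Wnt4 at 0 h (−1.49, adjusted p = 0.056), Wnt3 at 72 h (0.38, adjusted p = 0.099) and Wnt5b at 144 h (−0.55, adjusted p = 0.055). Leaving out replicate 3 removed those of Wnt5a (−1.05, adjusted p = 0.053) and Wnt5b (−0.42, adjusted p = 0.095) at 144 h. Wnt5a at 48 h was lost without any replicate, with the smallest change without replicate 1 (−0.59, adjusted p = 0.14). Wnt8a at 48 h and Wnt4 at 144 h kept their calls.

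At 96 h the replicate block called Wnt5a (0.27, adjusted p = 1.7e-05) and Wnt5b (−0.15, adjusted p = 0.011) between the WT clones, at 120 h Wnt5a (−0.36, adjusted p = 0.00082) and Wnt5b (−0.31, adjusted p = 0.014), and at 144 h Wnt7b (0.28, adjusted p = 0.016). With the block, more of all tested genes had an unadjusted p under 0.05 in edgeR too. Their number went from 2969 to 5265 at 96 h, from 2661 to 4807 at 120 h and from 6874 to 8314 at 144 h. The clone difference of Wnt5a at 144 h was 2.21-fold where that of p53KO–emiRFP against WT–emiRFP was 28.8-fold. The clone comparison shares its WT–emiRFP libraries with the comparison of p53KO cells and its WT–mCherry libraries with that of the neighbours.

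The other genes of the pathway were counted from lists at 120 h in p53KO–emiRFP against WT–emiRFP cells, where 51% of all tested genes were called. Of 13 canonical targets and feedback genes, 12 were higher and none was lower. The lists share genes, so their counts are not independent. Some targets are also listed below as antagonists (Dkk1), in receptor turnover (Rnf43) or as TCF/LEF factors (Lef1). T and Cdx1 are also among the streak and caudal epiblast markers above. T (2.79 ± 0.13, adjusted p = 8.5e-10), a gene of the streak and tail bud, Sp5 (2.16 ± 0.12, adjusted p = 5.1e-09), a transcription factor induced by β-catenin, Lef1 (1.35 ± 0.10, adjusted p = 8.4e-08) and Axin2 (1.09 ± 0.054, adjusted p = 1.7e-09), a component of negative feedback, were among the higher targets. Earlier these genes differed less evenly. At 48 h only Axin2 of these was called (0.53 ± 0.054, adjusted p = 2.9e-06), and at 72 h none was. At 96 h T was higher (0.81 ± 0.084, adjusted p = 8.5e-06) and Lef1 lower (−0.48 ± 0.12, adjusted p = 0.0085), while Sp5 and Axin2 were not called. Of 13 genes listed as secreted antagonists, 10 were higher and none lower, with Dkk1 (2.67 ± 0.26, adjusted p = 1e-06) and Dkk2 (2.43 ± 0.26, adjusted p = 3e-06), which block Lrp co-receptors, at the top. Of 8 tested R-spondins and genes of receptor turnover, 5 were higher and 2 lower, from Rspo3 (2.72 ± 0.17, adjusted p = 1.7e-08), a secreted enhancer of Wnt signalling, to Lgr6 (−1.88 ± 0.24, adjusted p = 1.5e-05), a receptor for R-spondins.

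Of 5 genes that acylate and export Wnt ligands, 4 were higher and 1 was lower. The latter was Porcn (−1.73 ± 0.10, adjusted p = 8.3e-09), the enzyme that attaches the lipid, and among the former was Wls (1.06 ± 0.12, adjusted p = 4.7e-06), the carrier that takes ligands to the cell surface. Of 16 receptors and co-receptors, 9 were higher and 4 lower, with the co-receptor gene Ptk7 (1.39 ± 0.064, adjusted p = 8.7e-10) and the Frizzled gene Fzd5 (−1.23 ± 0.15, adjusted p = 9.7e-06) showing the widest differences. Of 7 tested other ligands, 3 were higher and 1 lower, and Wnt10a (2.87 ± 0.30, adjusted p = 2.6e-06) and Wnt8b (2.35 ± 0.17, adjusted p = 6.1e-08) led. Of 4 TCF/LEF factors, 3 were higher and Tcf7l1 (−0.93 ± 0.075, adjusted p = 1.9e-07), mainly a repressor, was lower. Of 6 genes listed for β-catenin and its destruction complex, 1, Axin1 (0.22 ± 0.048, adjusted p = 0.0016), passed the threshold. Against the median of 0.05 over all tested genes, the targets had a median log2 fold change of 1.26, the listed antagonists of 0.82 and β-catenin with its destruction complex of 0.09.

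**Figure D5:**
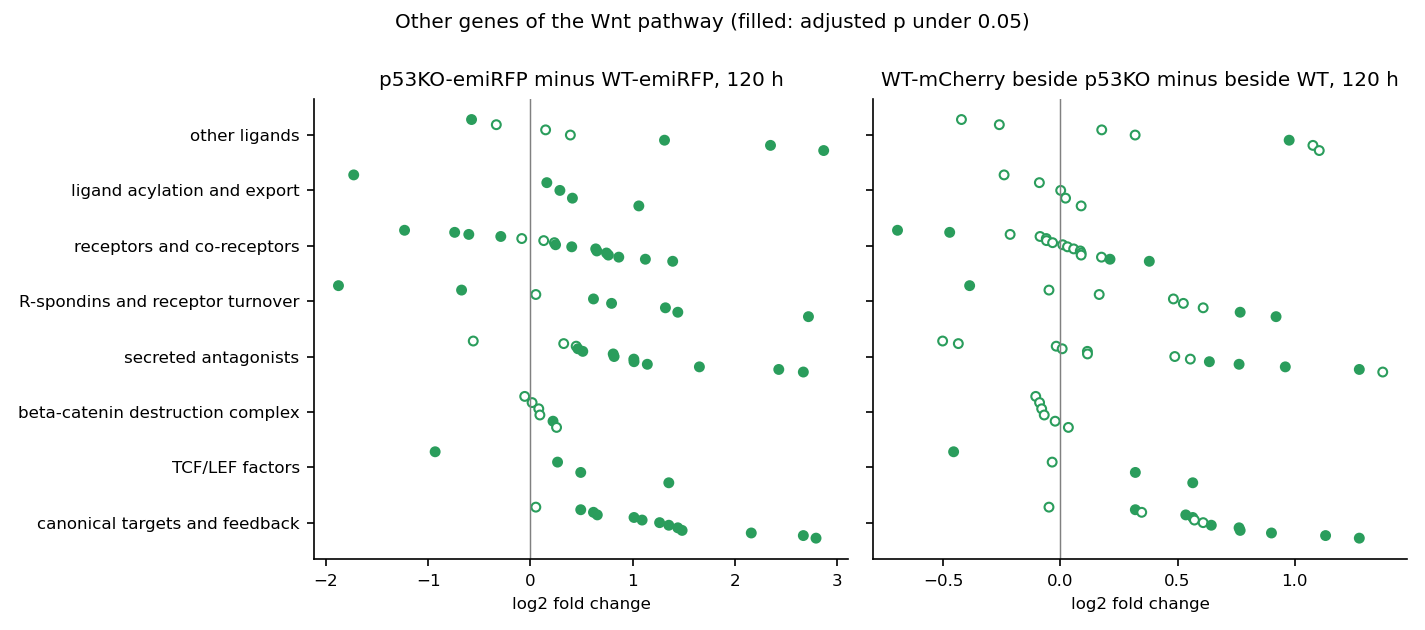
Log2 fold changes of the tested genes of each Wnt pathway list at 120 h, for p53KO–emiRFP against WT–emiRFP cells and for WT–mCherry cells with p53KO against those with WT neighbours, with 1 point per gene. In p53KO–emiRFP cells 12 of 13 targets and 10 of 13 listed antagonists are called higher, and 1 of 6 genes listed for β-catenin and its destruction complex is called.

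Between WT–mCherry cells with p53KO and with WT neighbours at 120 h, where 5.95% of all tested genes were called, 9 of 13 targets and 4 of 13 listed antagonists were higher and none of either was lower. At 144 h, where 25.5% of all tested genes were called, 6 of 13 targets were higher and 1 was lower. Sp5 (1.66 ± 0.17, adjusted p = 5.7e-05), Cdx1 (1.63 ± 0.21, adjusted p = 0.00022), T (1.24 ± 0.16, adjusted p = 0.0002) and Axin2 (0.37 ± 0.087, adjusted p = 0.0079) were higher, and Lef1 was at 0.06 ± 0.082, adjusted p = 0.63. The emiRFP cell RNA of 2.39% to 16.9% in these WT–mCherry libraries applies to the pathway genes as well, and p53KO–emiRFP against WT–emiRFP cells at 144 h differed in T by 4.37 ± 0.17, adjusted p = 2.3e-10 and in Sp5 by 3.68 ± 0.18, adjusted p = 9.9e-10. The subtraction was not run on the pathway genes, and the part of this RNA in their differences was not tested. Of 12 tested genes listed as antagonists, 2 were higher, Cer1 (3.92 ± 0.43, adjusted p = 8.8e-05) the most, and 4 were lower, Dkk2 (−1.68 ± 0.44, adjusted p = 0.014) the most. Whether Cer1 acts on Wnt ligands in these cells was not tested. Among R-spondins and receptor turnover, 4 of 8 were higher, led by Rspo3 (1.34 ± 0.17, adjusted p = 0.00023) and Rnf43 (1.26 ± 0.13, adjusted p = 5.7e-05), which removes Frizzled receptors, and 1 was lower. Of 16 receptors, 3 were higher and 4 lower, among them Fzd1 (−1.11 ± 0.15, adjusted p = 0.00031) and Fzd3 (−0.84 ± 0.11, adjusted p = 0.00024). Of 9 tested other ligands, 2 were higher and 3 lower, from Wnt10b (1.41 ± 0.30, adjusted p = 0.0048) to Wnt1 (−2.03 ± 0.26, adjusted p = 0.00021). Wls (−0.23 ± 0.073, adjusted p = 0.036) and Tmed2 (−0.22 ± 0.048, adjusted p = 0.0056) of the 5 export genes were lower by small amounts. So was the β-catenin gene Ctnnb1 (−0.28 ± 0.046, adjusted p = 0.00087), of the 6 genes listed for β-catenin and its destruction complex. Tcf7 (0.40 ± 0.056, adjusted p = 0.00034) was higher.

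Genes with the most similar course were sought by Pearson's r of log2(group mean + 1) over the 23 conditions, among 15935 genes, as a description. The conditions share clones and time points. Closest to Wnt3a were Bhmt2 (0.976), the caudal homeobox gene Cdx1 (0.974) and the receptor gene Fzd10 (0.973). Closest to Wnt5b were Gpld1 (0.984), the caudal growth factor gene Fgf8 (0.983) and Axin2 (0.980). Wnt5a was closest to Hmcn1 (0.987), Haglr (0.985), a long non-coding RNA of the HoxD cluster, and Gm2670 (0.979), which overlaps Wnt5a on the other strand.

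Wnt8a was most like Zfp36l3 (0.983) and Slc9a9 (0.972), and Wnt7b most like Dock5 (0.973), Alpk3 (0.971) and Krt20 (0.967). Wnt4 was most like Capn6 (0.963), Filip1l (0.958) and Agbl3 (0.948). For Wnt3 they were Rai14 (0.943), Sidt1 (0.940) and Rbbp7 (0.939). The values were lowest for Wnt6, with Cenpx (0.928), the ligand gene Wnt10a (0.918) and Pcdhga12 (0.916), and for Wnt11, with Fastk (0.922), Ctsb (0.898) and the organizer gene Gsc (0.896).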

How the data were processed

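Per the paper's methods, the authors trimmed reads with Trim Galore 0.6.7, aligned them with STAR 2.7.11b to GRCm38.p6 and counted uniquely mapped reads per gene. The deposited values are whole numbers whose totals differ between libraries, and were taken as raw counts. The table has 69 mapped columns, and 96.3% of its symbols matched the annotation used here for positions and exon lengths. The methods call the replicates independent experiments.

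Counts were divided by median-of-ratios size factors over all 69 libraries (normalized counts). Libraries were tested with edgeR 4.0.16 (quasi-likelihood test, R 4.3.3) after edgeR's filter on low counts, with Benjamini-Hochberg adjustment over all tested genes and a threshold of 0.05. The populations of 1 time point shared a fit (8 residual degrees of freedom after 0 h), while changes over time, and changes over time of a difference, used all 69 libraries. With 3 against 3 samples an exact permutation test cannot go below p = 0.1, so none was used for single genes. The code was tested on simulated data.

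Replicate numbers come from the labels. The deviations of same-numbered samples from their group means correlated at 0.0377 to 0.688 over 99 pairs of libraries at the same time point, with a median of 0.321 and 93 pairs over 0.1 (across 14078 genes, which are not independent). Every pair was over 0.1 for p53KO–emiRFP with WT–emiRFP cells at all time points and for the WT–mCherry groups at 48, 72, 96 and 144 h, but not at 120 h, where replicate 1 of these groups was at 0.0717 and the others at 0.626 and 0.577. A fit blocked on this number is given beside a result whose call it changes, except for the clones at 0 h. For the WT–mCherry groups at 120 h it is given only where this limit is stated. Replicates of a condition shared the same count in at most 1.85% of genes, so none was a repeat of another.

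The share of emiRFP cell RNA in a WT–mCherry library was its H2bc14 (or H2bc7) level over that in the same-numbered emiRFP library of the same gastruloids. As an alternative, that share of the emiRFP profile was subtracted from each gene, with a floor of 0. The other alternatives were TMM factors, DESeq2 1.42.0, no filter on low counts, a minimum fold change of 2, only the compared groups, all libraries in the fit and leaving out each replicate. Omission of the library with the highest emiRFP share was chosen after seeing the data.

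The members, pathway lists and marker lists were chosen with earlier results of these data known. Genes named besides the members are, for each member, the 3 with the highest Pearson's r among genes with a group mean of at least 50 normalized counts in some condition, of which 1 is not reported here. From each pathway list, up to 2 called genes with the largest change at 120 h (p53KO against WT) and at 144 h (neighbours) are named, besides T, Axin2, Lef1 and Sp5.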

Additional observations from a re-analysis of the deposited data

Results flagged for a closer look

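Whether a difference between groups changed from 1 time point to the next was tested in the fit of all 69 libraries, as the log2 difference at the later minus that at the earlier time ± standard error, with edgeR's adjusted p. A ligand is named here because this test passed its threshold.

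For p53KO–emiRFP against WT–emiRFP cells, 14 changes were called. Between 0 and 48 h (5.98% of all tested genes called) the differences of the streak ligands Wnt3 (−1.34 ± 0.41, adjusted p = 0.036) and Wnt8a (−1.21 ± 0.32, adjusted p = 0.015) and of Wnt4 (−1.46 ± 0.33, adjusted p = 0.0033) moved down. Between 48 and 72 h (1.76%) that of Wnt6 moved down (−2.14 ± 0.58, adjusted p = 0.036). Between 72 and 96 h (11%) those of Wnt4 (0.90 ± 0.29, adjusted p = 0.036), Wnt6 (1.75 ± 0.33, adjusted p = 0.00014) and Wnt8a (1.10 ± 0.23, adjusted p = 0.00054) moved up and that of Wnt5a down (−0.90 ± 0.26, adjusted p = 0.015). The step from 96 to 120 h (30.8%) took Wnt3a (2.83 ± 0.27, adjusted p = 2.5e-12), Wnt5a (1.55 ± 0.23, adjusted p = 2.9e-07), Wnt5b (1.58 ± 0.17, adjusted p = 3e-11) and Wnt6 (2.89 ± 0.35, adjusted p = 1.9e-09) up. Between 120 and 144 h (16.9%) the difference of Wnt5a widened further (3.71 ± 0.25, adjusted p = 2e-16) and that of Wnt6 shrank (−1.50 ± 0.42, adjusted p = 0.0071). Lost on leaving out any replicate were the calls of Wnt6 between 48 and 72 h and of Wnt4 between 72 and 96 h. Lost without 1 or 2 of the replicates were those of Wnt3, Wnt4 and Wnt8a between 0 and 48 h, of Wnt5a and Wnt8a between 72 and 96 h and of Wnt6 between 120 and 144 h.

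For WT–mCherry cells with p53KO against those with WT neighbours, 5 changes were called. Between 96 and 120 h (1.15% of all tested genes called) the differences of Wnt3a (1.30 ± 0.27, adjusted p = 0.0034) and Wnt5b (0.90 ± 0.16, adjusted p = 0.00085) moved up. Between 120 and 144 h (7.62%) those of Wnt5a (1.19 ± 0.24, adjusted p = 0.00063) and Wnt7b (0.93 ± 0.24, adjusted p = 0.0074) moved up and that of Wnt5b moved down (−0.61 ± 0.18, adjusted p = 0.027). Of the 14 and 5 calls, 6 and 0 were kept under every alternative, and each of the 5 was lost without some replicate. The emiRFP cell RNA in the WT–mCherry libraries beside p53KO cells was 2.39% to 16.9% by H2bc14 at 144 h. Both subtractions of it made the 144 h difference of Wnt5a smaller, as given above. They were not run on changes over time, and the part of this RNA in the change of Wnt5a between 120 and 144 h was not tested.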

How the results depend on the processing

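Under TMM factors all 178 tested values of the members kept their direction and side of the threshold. With DESeq2, 171 did, 6 gained and 1 lost a call. The replicate block gained 31 calls and lost 5, all 5 of them changes of WT cells over time (Wnt7b from 72 to 96 h, Wnt4 and Wnt5a from 96 to 120 h, Wnt3 and Wnt6 from 120 to 144 h). A minimum fold change of 2 left 15 of 29 calls for p53KO–emiRFP against WT–emiRFP cells, 5 of 10 between neighbours, 2 of 8 between WT clones and 2 of 5 for changes of the neighbour difference over time. Without a filter on low counts, the WT clones gave 16 and the changes of the neighbour difference 11. With the replicate block, neighbours gave 17, the WT clones 14 and the changes of the neighbour difference 12. The share of all tested genes called rose with the block too. For neighbours it went from 3.93% to 20.9% at 96 h and from 25.5% to 37.2% at 144 h. For changes of the neighbour difference between 96 and 120 h it went from 1.15% to 4.5%. No such share is given for the WT clones with the block, for the fold minimum or for no filter, so those counts say little about the members. At 120 h, where 1 of the 3 same-numbered pairs of the WT–mCherry groups correlated at under 0.1, the block called Wnt3 (0.70, adjusted p = 0.0057). The cause of these moves was not tested.

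Leaving out each replicate gave 25 to 30 calls for p53KO–emiRFP against WT–emiRFP cells, 4 to 7 between neighbours, 4 to 7 between WT clones, 7 to 10 for changes over time of the p53KO difference, 1 to 4 for those of the neighbour difference, 39 to 42 for WT cells over time and 36 to 37 for p53KO–emiRFP cells over time. The lowest neighbour count, 4, was without replicate 1. Called with every alternative were 14 of the 29 p53KO differences and 1 of the 10 neighbour differences, or 20 and 3 leaving aside the fold minimum. A change of sign was seen for Wnt3a between neighbours at 144 h, which went from 0.55 to −0.11 with the H2bc14 subtraction, and for Wnt6 in WT cells between 120 and 144 h, which went from −0.48 to 0.076 with WT–emiRFP cells alone. The cause was not tested. Wnt3a was counted with few reads at 48 h, where its group means were 2.78 to 4.22 normalized counts. With 1 p53KO clone, a difference of this clone and one of its genotype cannot be told apart. From 48 h on, neither can be told apart from one of neighbours or cell numbers seeded.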

Other observations

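The 10 Wnt genes outside the members had their highest group means between 72 and 144 h. After Wnt8b the next were Wnt16, with 387 normalized counts in WT–mCherry cells beside WT cells at 144 h, Wnt10a, with 307 in WT–mCherry cells beside p53KO cells at 96 h, and Wnt9a, with 268 in the latter at 144 h. The other 6 stayed at or below 108.

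Markers of further lineages were counted in p53KO–emiRFP against WT–emiRFP cells at 120 h, where 51% of all tested genes were called. There 2 of 5 endoderm and 2 of 5 surface ectoderm genes were lower, 1 of 5 neural genes was higher and 1 lower, 3 of 5 lateral plate and cardiac genes were higher and 1 lower, and 2 of 5 intermediate mesoderm genes were higher and 1 lower. Among 5 formative and primed genes, 1 was higher and 2 were lower. Of 2 tested notochord genes, 1 was higher.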
